A study of Saccharomyces cerevisiae with 6 samples.

Results

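The RNA exosome is the main complex that degrades RNA from the 3′ end in eukaryotic cells. In budding yeast its core consists of a cap of 3 RNA-binding proteins with S1 or KH domains, a ring of 6 proteins that resemble the bacterial enzyme RNase PH, and Dis3, the subunit that carries the nuclease activity. The cap and ring form a channel through which RNA is threaded to Dis3. In the nucleus the exosome trims ribosomal and small RNA precursors and removes faulty and non-coding transcripts with the TRAMP complex, and in the cytoplasm it degrades mRNA with the Ski complex. Deadenylation by Ccr4-Not, the complex to which the ubiquitin ligase Not4 belongs, precedes much of cytoplasmic mRNA decay.

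The mRNAs of the 10 core subunits were followed here. They were picked out by their systematic names and not by their values, though earlier results of these data were known at that time. They are RRP4 (YHR069C), RRP40 (YOL142W) and CSL4 (YNL232W) of the cap, SKI6 (YGR195W, also called Rrp41), RRP42 (YDL111C), RRP43 (YCR035C), RRP45 (YDR280W), RRP46 (YGR095C) and MTR3 (YGR158C) of the ring, and DIS3 (YOL021C). All 10 were among the 5913 genes listed, and all 10 passed the filter on low values that left 5805 genes for testing.

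The cells came from *Saccharomyces cerevisiae* strain BY4741 (MATa his3Δ1 leu2Δ0 met15Δ0 ura3Δ0) in which chromosomal *NOT4* was replaced by KANMX (*not4Δ*). They carried a centromeric URA3 plasmid from which the ADH1 promoter drove FLAG-tagged Not4. In Not4RRM cells (labelled not4D+Not4RRM, 3 cultures) the plasmid encoded Not4 with a glycine, a phenylalanine and a cysteine of its RRM and C domains changed to alanine. These are domains of kinds that often bind RNA, and whether they do so in Not4 is not known from these data. In Not4WT cells (not4D+Not4WT, 3 cultures) the plasmid encoded unaltered Not4, so both groups lack the chromosomal gene and neither expresses Not4 from its own promoter. Cells were grown in synthetic medium without uracil, and the comparison asks which mRNAs differ in level when these domains of Not4 are mutated.

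The values are read counts per gene that were scaled to a common total, so the 6 libraries each sum to between 14881818 and 14881884, and the depth before scaling is unknown. *NOT4* itself, annotated as MOT2, was at 33371, 40410 and 40314 in Not4RRM cells and at 12357, 13057 and 8966 in Not4WT cells, a 3.32-fold ratio of means, so the groups differ in the level of the plasmid transcript as well as in its sequence. The markers of the strain, LEU2 and MET15 (annotated as MET17), were at 11 to 26 in every library. Not4RRM replicate 1 stood apart: its difference from the Not4WT mean had a rank correlation of -0.54 with coding length over all tested genes, against -0.17 and -0.18 in Not4RRM replicates 2 and 3. The log2 fold changes that depend most on that library are given with and without it.

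All the subunit genes except RRP45 carry, before their start codon, a match to one or both of 2 short elements known from genes of ribosome and RNA processing in yeast. PAC was searched as GATGAG and RRPE as AAATTTT, on both strands, from 250 bases before to 50 bases after each start codon. PAC was present in 6 of the 10 genes, against 20.4% of 6001 gene windows, and RRPE in 8 of 10, against 23.2%. All 10 held at least one of the elements, against 35.8% of windows, and 4 (RRP40, CSL4, MTR3 and DIS3) held both, against 7.75%. The Rpn4 element GGTGGCAAA, known from proteasome genes, was in none of the 10 windows and in 1.2% of all windows. The matches are a description of letters and not of bound sites.

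The stretches below show the PAC element of RRP4, the subunit gene with the largest difference between groups, and the elements of the 4 genes that hold both. They are read from the RefSeq R64 genome on the gene's own strand, with the matches in capitals. CTCATC and AAAATTT are PAC and RRPE on the other strand.
RRP4 PAC, chrVIII:234762-234787, minus strand: tggattgagcGATGAGgtgaaaaaaa
RRP40 RRPE, chrXV:55452-55478, plus strand: tgatcggctgAAATTTTttggtttaga
RRP40 PAC, chrXV:55510-55535, plus strand: gcttcagcagCTCATCtccagcattt
CSL4 RRPE, chrXIV:214755-214781, plus strand: acgtgaagtaAAAATTTccaaaaaata
CSL4 PAC, chrXIV:214812-214837, plus strand: attcactgatGATGAGcttatggtac
MTR3 PAC, chrVII:806198-806226, minus strand: ttttttcacGATGAGATGAGatcgctaga
MTR3 RRPE, chrVII:806147-806173, minus strand: aaatactcaaAAAATTTcagtaatatg
DIS3 PAC and RRPE, chrXV:285524-285552, minus strand: tttctCTCATCtcagaAAAATTTTaatgt

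The PAC match of RRP4 begins 119 bases before its start codon, and no RRPE match was found in its window. In MTR3 a pair of PAC matches overlap, beginning 196 and 191 bases before the start codon. In DIS3 the elements lie side by side, with PAC at 121 bases and RRPE, which reads as a match on both strands, at 110 and 109 bases. SKI6, RRP42, RRP45 and RRP46 held RRPE without PAC, and the RRPE match of RRP45 lies inside its coding sequence. RRP43, like RRP4, held PAC without RRPE, 59 bases before its start codon.

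*RRP4* was about 2-fold higher in Not4RRM cells, while the other 9 subunit genes showed smaller differences, 8 of which shrank when Not4RRM replicate 1 was left out. No subunit gene was called at an adjusted p under 0.05 and a 1.5-fold change in limma, and neither was any other gene, so the share called was 0% of 5805 genes. At an unadjusted p under 0.05, 2 subunit genes were higher, RRP4 and RRP46, and none lower. Over all tested genes 9.84% were higher and 6.06% lower at that unadjusted threshold.

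Relative to all genes the subunits leaned upward. Of the 10 log2 fold changes, 8 were above 0 and 2 below, against 3185 above and 2620 below over all 5805 tested genes. The median of the subunits was 0.33 on the TMM-corrected scale, against 0.05 over all tested genes. On the deposited scale alone the median of all genes moved to -0.07 and that of the subunits to 0.21. Without Not4RRM replicate 1 the median of the subunits was 0.08, and 6 of 10 were above 0. Without RRP4 it was 0.29 over the other 9.

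In the deposited values, all 3 Not4RRM libraries lay above all 3 Not4WT libraries for 3 subunit genes, RRP4, CSL4 and RRP46, and below them for none. Over all tested genes this held upward for 458 genes, or 7.89%, and downward for 1083 genes, or 18.7%. After TMM correction, RRP40 joined them, making 4 subunit genes, and the split over all genes became 718 higher and 706 lower. With 3 cultures against 3, an exact permutation test cannot give a two-sided p below 0.1.

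**Figure D1:**
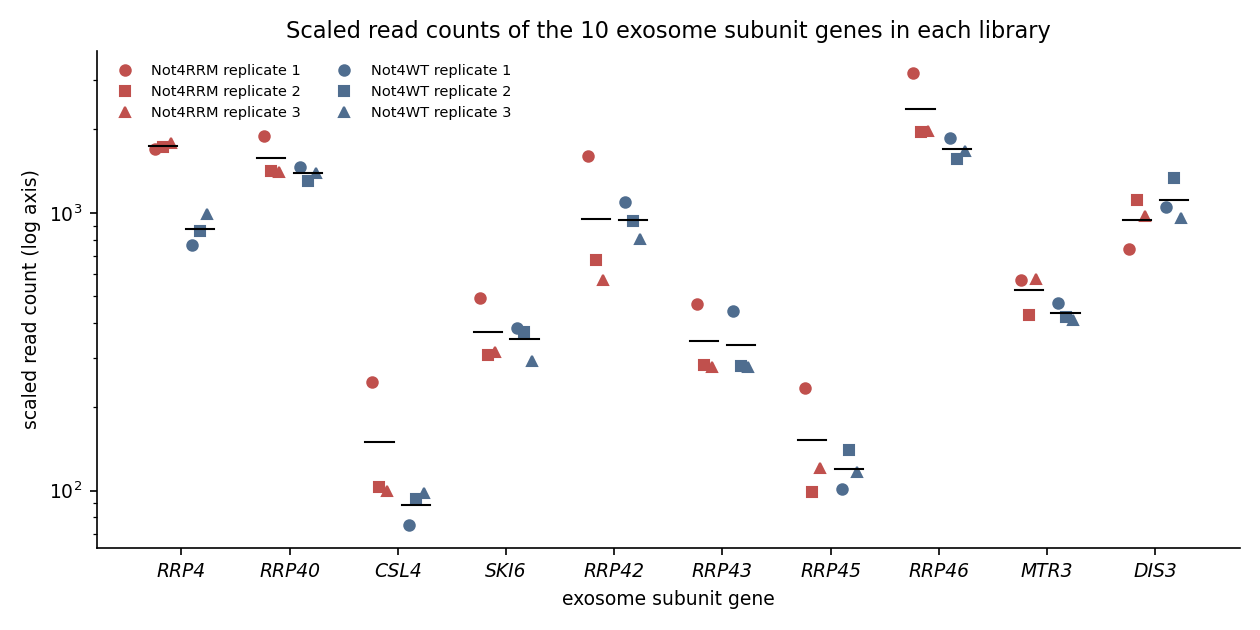
Scaled read counts (log axis) of the 10 exosome subunit genes in each of the 3 Not4RRM libraries (red, left) and 3 Not4WT libraries (blue, right), with group means as bars. RRP4 is the gene whose 3 Not4RRM libraries lie together, at 1695 to 1787, above Not4WT libraries at 769 to 990, and the red circles of replicate 1 stand above the other libraries for most genes.

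The cap subunits bind RNA at the entry of the channel. *RRP4* (chrVIII:233579-234658, minus strand, 1 coding exon of 1080 bases) encodes the cap protein with both an S1 and a KH domain. Its scaled counts were 1695, 1725 and 1787 in Not4RRM cells and 769, 857 and 990 in Not4WT cells. The groups did not overlap, and the Not4RRM libraries were closer to each other than the Not4WT libraries were. The means were 1736 ± 46.9 in Not4RRM cells and 872 ± 111.3 in Not4WT cells (SD, n = 3 each), a 1.99-fold ratio. The log2 fold change was 1.12 with a standard error of 0.17 and a 95% interval of 0.72 to 1.53, and limma gave an unadjusted p of 0.00022 and an adjusted p of 0.0914. The two-sided exact permutation p was 0.1, the smallest this design allows.

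RRP4 was the only subunit gene called when Not4RRM replicate 1 was left out, at 1.13 on the log2 scale with 0.0224 as the adjusted p from limma. In that comparison 3.97% of 5793 tested genes were called higher. It was also the only subunit gene called by the steps of the study's methods. These steps test the deposited values gene by gene with unequal variances. They adjust p only within the genes that already passed an unadjusted p of 0.05 and a 1.5-fold change, not over all genes. They called 2.2% of 5913 genes higher and 3.81% lower. In the other 15 limma settings tried, all of which kept Not4RRM replicate 1, the adjusted p of RRP4 ranged from 0.0769 to 0.438. Its log2 fold change there ranged from 0.51 to 1.21.

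The lowest of these values, 0.51 with a limma adjusted p of 0.322, came when each chromosome was centred on its own genes. *RRP4* lies on chromosome VIII, whose 275 tested genes centred on a log2 fold change of 0.65 (median), against -0.11 to 0.08 for the other 15 nuclear chromosomes. On that chromosome 37 genes had a larger fold change than RRP4, of 135 in the whole genome. Of its 275 tested genes, 155 were higher at an unadjusted limma p under 0.05, and the steps of the study's methods called 55 higher. In the deposited values, all 3 Not4RRM libraries lay above all 3 Not4WT libraries for 122 of them, or 44.4%. The chromosome VIII median stood 0.37, 0.80 and 0.79 above the Not4WT mean on the log2 scale in Not4RRM replicates 1, 2 and 3, and between -0.01 and 0.04 in the Not4WT libraries. Relative to that median, RRP4 was at 0.70, 0.30 and 0.42 in Not4RRM cells and at -0.21, -0.06 and 0.25 in Not4WT cells. These log2 differences still did not overlap, with an exact permutation p of 0.1, but the lowest Not4RRM and the highest Not4WT value were close.

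The genes directly on either side of RRP4 were higher in Not4RRM cells by less, but genes just beyond them rose about as much as RRP4. By systematic name these are HTD2 (YHR067W), SSF1 (YHR066W) and PCL5 (YHR071W), with log2 fold changes of 1.00, 1.26 and 1.16. DYS1, which encodes deoxyhypusine synthase, ends 282 bases from RRP4. Its scaled counts were 2607, 1789 and 1702 in Not4RRM cells and 1639, 1410 and 1160 in Not4WT cells, which gave a log2 fold change of 0.65 ± 0.22 (SE; limma adjusted p = 0.242). TRM5, which encodes a tRNA methyltransferase and is transcribed away from RRP4 across 222 bases, was at 1279, 1985 and 1877 in Not4RRM cells and at 1309, 1421 and 1079 in Not4WT cells. The TRM5 groups overlapped in the deposited values but not after TMM correction, and the log2 fold change was 0.54 ± 0.22 (SE; limma adjusted p = 0.296). A change specific to RRP4 and one of the whole chromosome cannot be told apart from the counts of this gene alone.

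**Figure D2:**
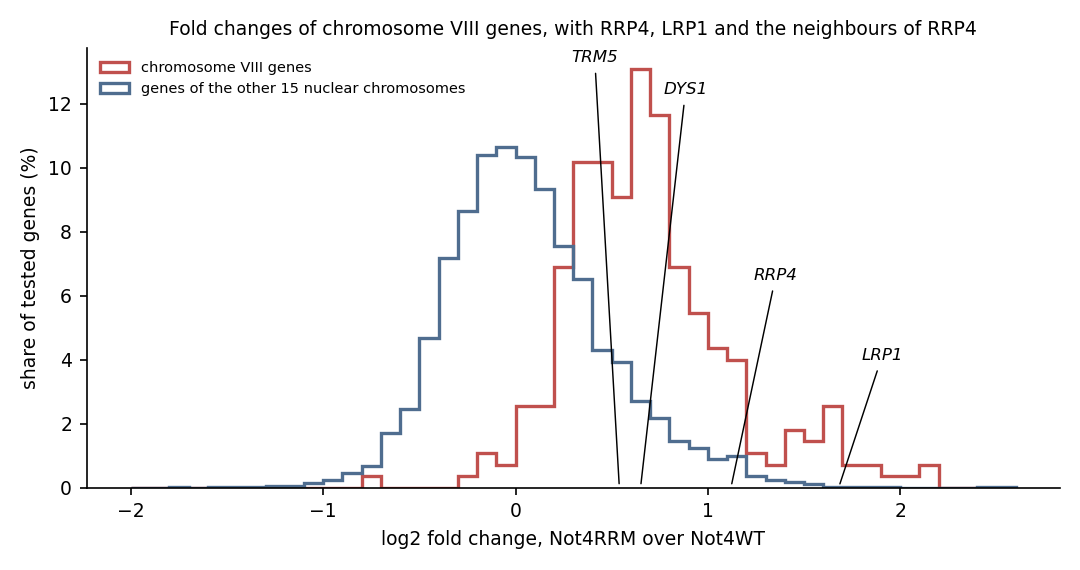
Share of tested genes (percent) by log2 fold change, Not4RRM over Not4WT, for the 275 genes of chromosome VIII (red) and for the genes of the other 15 nuclear chromosomes (blue). RRP4 at 1.12 lies to the right of the chromosome VIII median of 0.65, near which its neighbours DYS1 and TRM5 lie, and the cofactor gene LRP1 lies farther right at 1.68.

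*RRP40* encodes another cap protein with S1 and KH domains. Its scaled counts were 1895, 1410 and 1409 in Not4RRM cells and 1466, 1304 and 1390 in Not4WT cells. Only Not4RRM replicate 1 exceeded all Not4WT libraries, and the groups overlapped on this scale. The log2 fold change was 0.29 ± 0.18 (SE), with a 95% interval of -0.13 to 0.72 and a limma adjusted p of 0.447, and it was 0.14 without Not4RRM replicate 1.

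*CSL4* encodes the remaining cap protein, which has an S1 domain. Its scaled counts were 246, 103 and 100 in Not4RRM cells and 75, 93 and 98 in Not4WT cells. The groups did not overlap, but Not4RRM replicates 2 and 3 exceeded the highest Not4WT library by a few counts, and replicate 1 stood far above both. The log2 fold change was 0.75 ± 0.35 (SE), with a 95% interval of -0.06 to 1.56 and a limma adjusted p of 0.341, and it was 0.31 without Not4RRM replicate 1.

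The 6 ring proteins assemble as 3 pairs, Ski6 with Rrp45, Rrp46 with Rrp43, and Rrp42 with Mtr3. Their genes had log2 fold changes between -0.01 and 0.57, 5 above 0 and 1 below. The mRNA of *RRP46* was at 3181, 1958 and 1980 in Not4RRM cells and at 1859, 1565 and 1666 in Not4WT cells. All 3 Not4RRM libraries were above the Not4WT libraries, and replicate 1 was again the highest. Its log2 fold change was 0.57 ± 0.23 (SE), with a 95% interval of 0.04 to 1.10, an unadjusted p of 0.0374 and an adjusted p of 0.292 in limma, and it was 0.33 without Not4RRM replicate 1.

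*RRP43*, whose product pairs with Rrp46, was at 471, 283 and 279 in Not4RRM cells and at 443, 280 and 279 in Not4WT cells. The groups covered nearly the same range, and the log2 fold change was 0.16 ± 0.27 (SE), with a 95% interval of -0.48 to 0.79, and -0.10 without Not4RRM replicate 1. The ratio of RRP46 to RRP43, each per kb of coding sequence, does not depend on how libraries are scaled to each other. It was 11.9, 12.2 and 12.5 in Not4RRM cells and 7.4, 9.86 and 10.5 in Not4WT cells. It was higher in every Not4RRM library, replicate 1 included, with an exact permutation p of 0.1. RRP46 has 672 coding bases and RRP43 has 1185, so differences between libraries that follow coding length can still enter this ratio. With the trend with length removed, the log2 fold change of RRP46 was 0.35 (limma adjusted p = 0.338).

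*SKI6* was at 495, 309 and 315 in Not4RRM cells and at 384, 373 and 294 in Not4WT cells. *RRP45*, whose product pairs with Ski6, was at 235, 99 and 121 in Not4RRM cells and at 101, 140 and 117 in Not4WT cells. In both genes Not4RRM replicate 1 was the highest of the 6 libraries, and the other libraries of the groups were mixed. The log2 fold changes were 0.19 ± 0.22 for SKI6 and 0.38 ± 0.32 for RRP45 (SE), with limma adjusted p of 0.674 and 0.563. Without Not4RRM replicate 1 they were -0.05 for SKI6 and -0.00063 for RRP45. The per-kb ratio of SKI6 to RRP45 averaged 3.23 ± 0.629 in Not4RRM cells and 3.71 ± 0.873 in Not4WT cells (SD, n = 3 each; exact permutation p = 0.6).

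*RRP42* was, on the log2 scale, the subunit gene with the widest range among Not4RRM cells. Its scaled counts were 1599, 678 and 574 in Not4RRM cells and 1091, 933 and 807 in Not4WT cells. Replicate 1 lay above and replicates 2 and 3 below every Not4WT library, and the log2 fold change was -0.01 ± 0.36 (SE), with a 95% interval of -0.85 to 0.83. Without Not4RRM replicate 1 it was -0.47, with a limma adjusted p of 0.11. *MTR3*, whose product pairs with Rrp42, was at 575, 428 and 576 in Not4RRM cells and at 474, 423 and 413 in Not4WT cells. Its groups overlapped, with a log2 fold change of 0.38 ± 0.18 (SE), a 95% interval of -0.04 to 0.81 and a limma adjusted p of 0.351, and it was 0.30 without Not4RRM replicate 1. The per-kb ratio of RRP42 to MTR3 was 2.62, 1.49 and 0.94 in Not4RRM cells and 2.17, 2.08 and 1.84 in Not4WT cells, so the Not4RRM libraries spanned the Not4WT range on both sides.

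*DIS3* encodes the catalytic subunit, an exonuclease of the RNase II family that also has an endonuclease domain. Its scaled counts were 740, 1115 and 973 in Not4RRM cells and 1048, 1330 and 962 in Not4WT cells. The groups overlapped, and Not4RRM replicate 1, the highest library for most other subunits, was the lowest for this gene. The log2 fold change was -0.12 ± 0.21 (SE), with a 95% interval of -0.61 to 0.36 and a limma adjusted p of 0.788, and it was 0.03 without Not4RRM replicate 1.

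**Figure D3:**
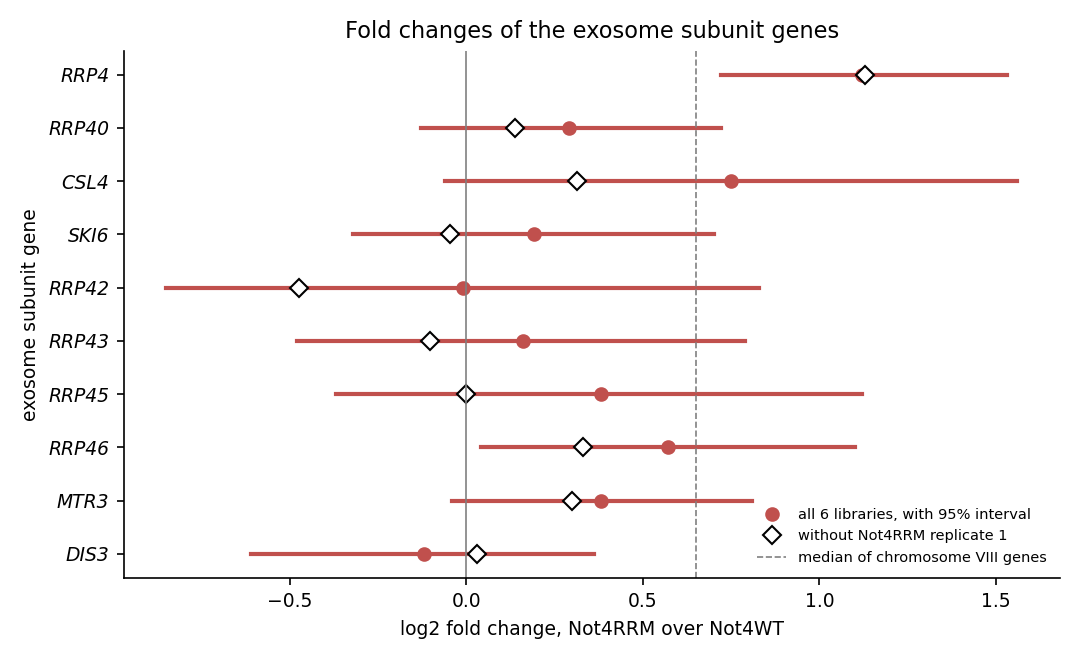
Log2 fold changes of the exosome subunit genes, Not4RRM over Not4WT, from all 6 libraries with their 95% intervals (red) and without Not4RRM replicate 1 (open diamonds), with the median of chromosome VIII genes as a dashed line. RRP4 keeps its value without that library (1.12 and 1.13), whereas CSL4 goes to 0.31 and RRP42 to -0.47. Relative to the chromosome VIII median, however, RRP4 was at 0.70 in Not4RRM replicate 1 and at 0.30 and 0.42 in replicates 2 and 3.

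The subunits also differed in how they varied between libraries. Not4RRM replicate 1 was the highest of the 6 libraries for 7 of the 10 subunit genes, against 30.7% of all tested genes. The median difference of the subunits from the Not4WT mean was 0.75, 0.10 and 0.20 on the log2 scale in Not4RRM replicates 1, 2 and 3, against 0.11, -0.07 and 0.00 in the Not4WT libraries. Coding length moves with this library over all genes, and 9 of the 10 subunit genes, at 672 to 1185 bases, are shorter than the median tested gene of 1242 bases. DIS3, at 3006 bases, is the exception. Among the 10 subunit genes themselves, the rank correlation of that library with length was 0.03. When the trend with length was removed, the median log2 fold change of the subunits went from 0.33 to 0.16, and RRP4 was at 1.06. All other subunits above 0 fell, such as RRP46 from 0.57 to 0.35, RRP40 from 0.29 to 0.09 and MTR3 from 0.38 to 0.20. The part of length or library quality in the other differences was not tested further.

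**Figure D4:**
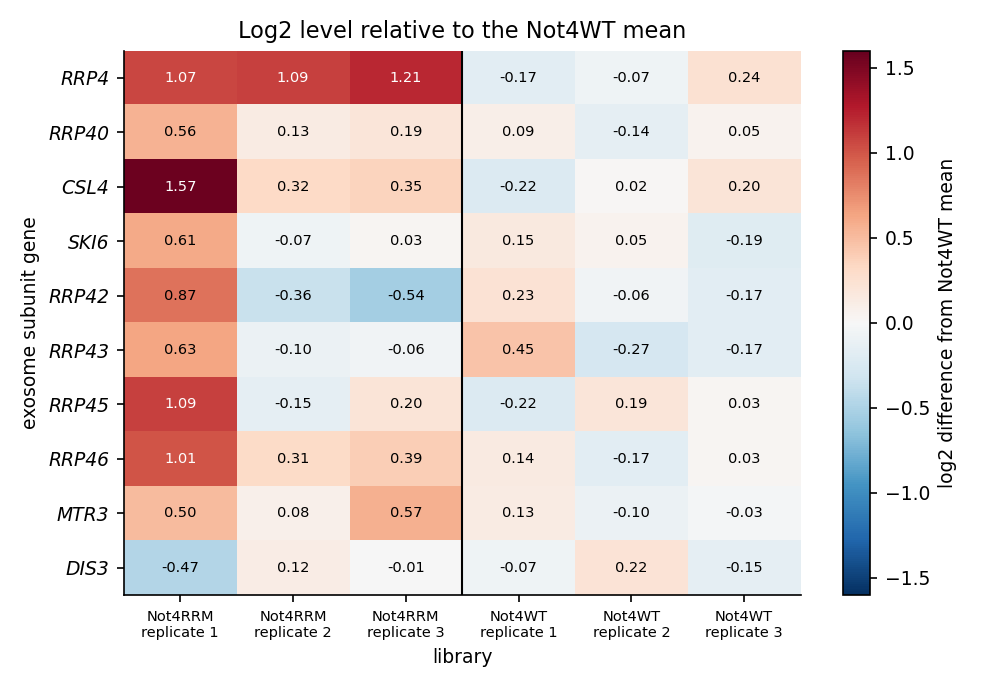
Log2 level of each exosome subunit gene in each library relative to its Not4WT mean, with Not4RRM libraries to the left of the line. The RRP4 row is even across Not4RRM libraries (1.07, 1.09 and 1.21), while CSL4, RRP45 and RRP46 exceed 1 only in Not4RRM replicate 1 and DIS3 is lowest there (-0.47).

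Over the 6 libraries, 35 of the 45 pairs of subunit genes had a positive correlation of their log2 levels, with a median Pearson r of 0.63. The closest pairs were RRP40 with RRP46 (r = 0.99), CSL4 with RRP45 (0.93) and CSL4 with RRP46 (0.91). DIS3 was negatively correlated with all 9 other genes, and RRP4 reached at most 0.73 with any of them. With each group centred on its own mean, the median r was 0.53 and DIS3 was still negative with all 9. RRP4 was then negative with 8 of 9 and reached at most 0.05, so its positive values over the 6 libraries reflect the difference between the groups. These are descriptions of 6 libraries, Not4RRM replicate 1 included. The same correlations were not computed over all tested genes or without that library, and the part of coding length in them was not tested.

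Levels of the subunit mRNAs were far from equal, although each protein is present once in the core. Per kb of coding sequence on the TMM-corrected scale, the highest exceeded the lowest by 21.4-fold in Not4RRM cells and by 25-fold in Not4WT cells. *RRP46* was the highest in both groups, at 3679 ± 1036 in Not4RRM cells and 2421 ± 257 in Not4WT cells (SD, n = 3 each), followed by RRP40 at 2266 ± 376 in Not4RRM cells and 1839 ± 153 in Not4WT cells. The lowest were CSL4, at 177 ± 96.1 in Not4RRM cells and 96.7 ± 14.2 in Not4WT cells, and RRP45, at 172 ± 80.6 in Not4RRM cells and 124 ± 17.6 in Not4WT cells. The median tested gene was at 383 in Not4RRM cells and at 364 in Not4WT cells, so the subunits lay on both sides of it. Without Not4RRM replicate 1 the range in Not4RRM cells was 25.4-fold, with RRP46 at 3083, RRP45 at 126 and CSL4 at 121.5 per kb.

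In Not4RRM cells the order ran RRP46, RRP40, RRP4, RRP42, MTR3, SKI6, DIS3, RRP43, CSL4 and RRP45. In Not4WT cells RRP42 preceded RRP4, and RRP45 preceded CSL4. Without Not4RRM replicate 1, RRP45 preceded CSL4 in Not4RRM cells as well, RRP4 was separate from RRP42, and the other places were the same. Of the 9 neighbouring pairs in the order, 6 overlapped in Not4RRM cells and 3 in Not4WT cells. RRP4, at 1679 ± 89.4 per kb in Not4RRM cells and 775 ± 118 per kb in Not4WT cells, was separate from RRP42 in Not4WT cells and overlapped it in Not4RRM cells. Its per-kb level relative to the geometric mean of the other 9 subunits, a ratio taken within each library, was 2.05, 3.35 and 3.40 in Not4RRM cells and 1.35, 1.56 and 1.95 in Not4WT cells. Every Not4RRM library was higher, with an exact permutation p of 0.1, and replicate 1 was nearest to the Not4WT range. RRP4 is the only subunit gene on chromosome VIII, and this ratio is not corrected for the median of that chromosome. The same ratio for RRP46 also did not overlap, at 7.0, 6.53 and 6.45 in Not4RRM cells and 6.12, 5.14 and 5.89 in Not4WT cells (exact permutation p = 0.1). RRP46 is the shortest subunit gene, and this ratio is not corrected for the trend with coding length. DIS3 stood next to RRP43 in the lower part of the order in both groups, and its per-kb ratio to SKI6 averaged 0.673 ± 0.271 in Not4RRM cells and 0.786 ± 0.105 in Not4WT cells (SD, n = 3 each; exact permutation p = 0.7).

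**Figure D5:**
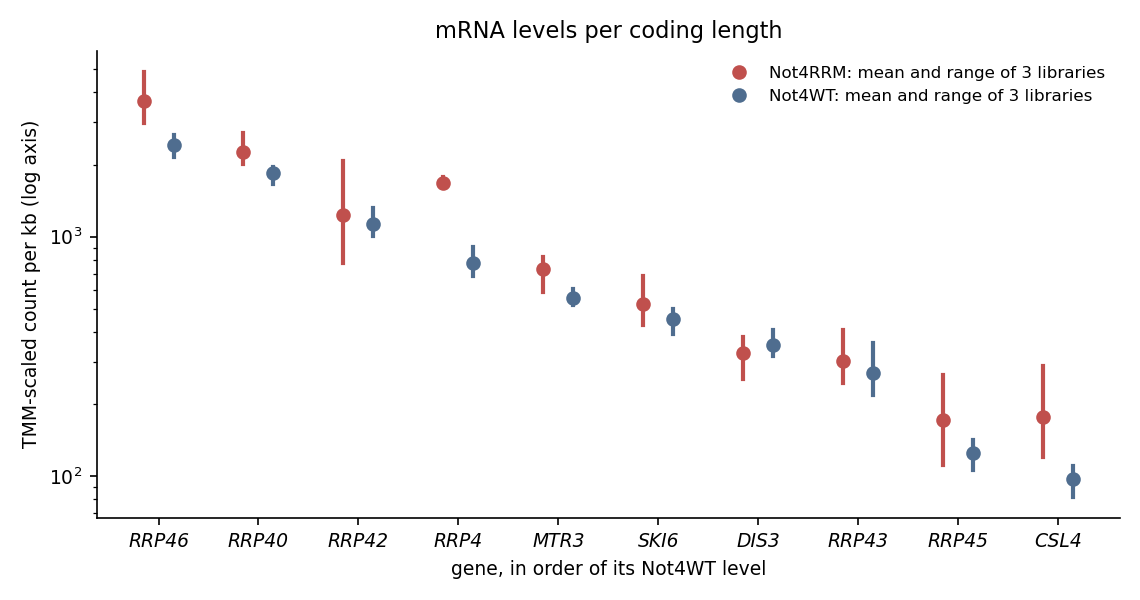
TMM-scaled counts per kb of coding sequence (log axis) for the exosome subunit genes in order of their Not4WT level, as the mean and range of 3 Not4RRM libraries (red, left) and 3 Not4WT libraries (blue, right). RRP46 is highest and CSL4 and RRP45 lowest in both groups, and RRP4 is at 1679 in Not4RRM cells and 775 in Not4WT cells.

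Of the 17 cofactor genes, which feed RNA to the exosome, 8 were higher and 9 lower in Not4RRM cells, the median of their log2 fold changes was -0.08, and none was called in limma. At an unadjusted p under 0.05, 2 were higher (MPP6 and AIR2), or 11.8% against 9.84% of all tested genes, and 1 lower (NRD1), or 5.88% against 6.06%. In the deposited values the groups did not overlap for 4 higher cofactor genes, or 23.5% against 7.89% of all tested genes, and for 2 lower ones, or 11.8% against 18.7%. After TMM correction there were 5 higher and 1 lower of the 17, against 718 higher and 706 lower of the 5805 tested genes.

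*NRD1*, which encodes the RNA-binding protein that ends transcription of non-coding RNAs together with Nab3 and the helicase Sen1, was at 1235, 1684 and 1438 in Not4RRM cells and at 2794, 2778 and 2100 in Not4WT cells. Every Not4RRM library was below every Not4WT library. The log2 fold change was -0.69 ± 0.19 (SE), with an unadjusted p of 0.00801 and an adjusted p of 0.179 in limma, and NRD1 was the only cofactor gene called by the steps of the study's methods. All 3 genes of this group had a log2 fold change below 0, between -0.69 and -0.24, as did 2620 of the 5805 tested genes. Not4RRM and Not4WT libraries overlapped for the other 2.

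The TRAMP genes supply the poly(A) polymerases and zinc-knuckle proteins that mark nuclear RNA for the exosome. Of these 4 genes, 3 had a log2 fold change above 0, and the values ran from -0.08 to 1.13. AIR2, a zinc-knuckle protein gene, was at 174, 196 and 183 in Not4RRM cells and at 139, 125 and 152 in Not4WT cells. The groups did not overlap, the log2 fold change was 0.53 ± 0.17 (SE), and the limma adjusted p was 0.229. Its paralog AIR1, picked out after its values were seen, was at 4091, 959 and 969 in Not4RRM cells and at 846, 783 and 710 in Not4WT cells, so most of its log2 fold change of 1.13 ± 0.52 (SE; limma adjusted p = 0.332) came from replicate 1, without which it was 0.42.

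Of the 4 nuclear cofactor genes, 2 (LRP1 and MPP6) had log2 fold changes above 0, and both encode small proteins that accompany the nuclear exonuclease Rrp6. MPP6 was at 199, 262 and 334 in Not4RRM cells and at 196, 87 and 196 in Not4WT cells, with a log2 fold change of 0.91 ± 0.37 (SE) and a limma adjusted p of 0.296. It was 0.50 without Not4WT replicate 2, the low library, and 0.64 with the trend with length removed. LRP1, on chromosome VIII like RRP4, was at 30, 182 and 204 in Not4RRM cells and at 52, 17 and 47 in Not4WT cells. Replicates 2 and 3 were high and replicate 1 within the Not4WT range, the reverse of most core subunits. Its log2 fold change was 1.68 ± 0.77 (SE; limma adjusted p = 0.332), and without Not4RRM replicate 1 it was 2.55, with an adjusted p of 0.0359 in limma. It was 1.06 with each chromosome centred on its own genes, and 1.15 without Not4WT replicate 2. Without Not4RRM replicate 3 it was 1.16, and none of these 3 passed 0.05 in limma. Of the 4 genes of the cytoplasmic Ski complex and its bridge to the exosome, 1 was higher, and their log2 fold changes ran between -0.41 and 0.33.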

How the data were processed

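RNA from 3 Not4RRM and 3 Not4WT cultures was sequenced on an Ion Torrent Proton. Per the study's methods, the authors trimmed the reads, aligned them to the S288C transcriptome (STAR, version not given, and build R64 in the submitters' processing notes), counted them per transcript and scaled the counts to the library of lowest coverage. What was deposited is the scaled and rounded count, treated here as a score and not as raw counts, so no count model was used. The kit named in the methods differs from the one in the labels, and whether counting used strand is not given in the sources used here. No annotated gene overlaps a subunit or cofactor gene.

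Values were corrected by TMM factors (trims of 0.3 and 0.05) and tested as log2(value + 1) with limma 3.58.1 in R 4.3.3 (variance trend, group term), so fold changes of low genes are understated. Genes at 10 or more in at least 3 libraries were kept, and p was adjusted by Benjamini-Hochberg over all 5805. A call was an adjusted p under 0.05 with a 1.5-fold change. The script was tested on simulated data. Exact permutation tests were two-sided, and rank correlations were Spearman's (SciPy 1.17.1). The limma p-values set group differences against the spread between these libraries, whose cultures are not described beyond being grown in triplicate. Of 5913 names, 5907 matched RefSeq R64. A row without a name held 0 values and was left out. No 2 libraries were duplicates.

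Named genes were all 10 subunits, the cofactors with an unadjusted p under 0.05 or the largest difference in either direction, the neighbours of RRP4, and NOT4, LEU2 and MET15 as checks. AIR1, HTD2, SSF1 and PCL5 were added after their values were seen. The subunits and lists were chosen with earlier results of these data known. Alternatives changed the scaling, pseudocount, filter, prior variance, replicate block, length and chromosome terms, the promoter window, and the libraries included.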

Additional observations from a re-analysis of the deposited data

How the results depend on the processing

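RRP4, CSL4, RRP40, RRP46 and MTR3 stayed above 0 in all 16 limma alternatives. The number of genes called in limma was 0 with every setting other than removing the length trend, which gave 5, and leaving out a library, which gave 0 to 372 (372 without Not4RRM replicate 1, 230 higher and 142 lower, and 0 without any other). The steps of the study's methods called 355, with p adjusted only within a list preselected by unadjusted p and fold change. Unadjusted, 923 genes passed 0.05. Of the subunits 0 to 1 and of the cofactors 0 to 1 were called when leaving out a library, and 1 subunit and 1 cofactor by the methods' steps. The subunit median ranged from 0.083 to 0.46 over left-out libraries. The cofactor median ranged from -0.095 to 0.064 over left-out libraries, and was -0.20 on the deposited scale, 0.030 without the length trend and -0.10 with median-of-ratios scaling. Directions turned without the length trend for DIS3 (0.0020) and SKI6 (-0.0013), and under the methods' steps for RRP42 (0.010). Over left-out libraries DIS3 ranged from -0.24 to 0.029, RRP42 from -0.47 to 0.24, RRP43 from -0.10 to 0.38, RRP45 from -0.00063 to 0.64 and SKI6 from -0.046 to 0.32. The cause of these shifts was not tested, beyond the fewer samples. Counting PAC and RRPE in the 250 bases before the start codon alone gave 6 and 7 subunit genes. The median of the subunits without RRP4, 0.29, was chosen after seeing the data.

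Same-numbered libraries deviated with correlations of 0.07, -0.149 and 0.379, so the numbers were not taken to pair cultures. With a replicate block, 0 genes were called and RRP4 had a log2 fold change of 1.12 with an adjusted p of 0.189 in limma. Counting error cannot be given without the depth of the libraries before they were scaled, and low genes such as CSL4 and RRP45 are the least certain.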
